A study of Mus musculus with 8 samples.

Results

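This account concerns 10 genes of the YAP-TEAD axis that were read from the expression table by name, out of 50600 rows. They were 6 genes known as YAP-TEAD targets (*Ctgf*, *Cyr61*, *Ankrd1*, *Amotl2*, *Lats2* and *Ajuba*), the coactivator gene *Yap1*, and 3 genes of TEAD proteins (*Tead1*, *Tead2* and *Tead4*). All 10 were found, and *Ctgf* and *Cyr61* are also called *Ccn2* and *Ccn1*. RNA-seq was made from JUN-TetON mouse embryonic stem cells (mESCs), labelled as OG2 transgenic mESCs at passage 12, of a strain mixed from 129SVJ, C57B6 and CBA. All 4 groups received doxycycline at 2 µg/ml, which switches on the *Jun* transgene, and in addition the solvent DMSO, PFI-3, BI-9564 or the 2 compounds at once (P+B). The labels give 6 h of treatment and 2 libraries per group, 8 in all. PFI-3 binds bromodomains of the chromatin remodelling proteins SMARCA2, SMARCA4 and PBRM1, and BI-9564 binds those of BRD9 and BRD7. The labels give no dose of either compound, so doses may differ between the groups set side by side here, and P+B may hold another amount of a compound than the single treatment. The labels do not say whether the replicates were separate cultures, so the p-values measure only the spread between these libraries, which may be technical.

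YAP is a coactivator that enters the nucleus when the Hippo kinases are inactive, and it binds DNA through the TEAD transcription factors. The Hippo kinases LATS1 and LATS2 phosphorylate YAP and keep it in the cytoplasm. Several targets of YAP-TEAD act back on the pathway, among them *Lats2*, *Amotl2* and *Ajuba*. AP-1, the dimer that JUN forms with FOS or JUN family proteins, is known to bind many enhancers together with TEADs. In the early mouse embryo, TEAD4 is needed for the trophectoderm, the outer layer that forms the placenta.

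Values are TPM, a measure of transcript abundance scaled for gene length, which the authors made whole numbers. Levels can therefore be compared between genes. The test covered the 10222 genes whose TPM averaged 5 or more, among them 9 of the 10 members. *Ankrd1*, with a mean of 1, was not tested. Fold changes are on the scale of log2(TPM + 1), which understates the change of low genes, and SE is their standard error. A gene was called changed at an adjusted p-value under 0.05 (limma, Benjamini-Hochberg over all genes tested) and a fold change of at least 1.5. Same-numbered replicates of the 4 groups deviated together, though weakly (Pearson r of 0.143 to 0.236 across genes). The main fit does not use this pairing. A second fit blocks on the replicate number and is given wherever it changes the call of a member. The block also changed calls of other genes, and not all of these are given. An exact two-sided permutation test of 2 libraries against 2 cannot go below p = 0.333 for a single gene.

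The depth of the libraries is unknown, because TPM keeps no read number. *Jun* TPM was 1970 and 2877 in the DMSO libraries, 1570 and 2227 under PFI-3, 2071 and 3011 under BI-9564, and 1569 and 2159 under P+B. It was higher in replicate 2 than in replicate 1 in all 4 groups. The genes of the proteins that the compounds bind (*Smarca4*, *Smarca2*, *Pbrm1*, *Brd7* and *Brd9*) gave 0 calls with P+B, and *Smarca2*, with a mean TPM of 4.13, was not tested. The label of mESCs was checked against 10 pluripotency markers, all expressed, with *Pou5f1* at 1104 to 1333 TPM. Of 10 fibroblast markers, 5 were at 0 in every library and the highest single value was 4 TPM. The 10 primitive endoderm markers summed to 26 to 35 TPM, with 4 of them at 0 in every library. Of 10 trophectoderm markers, *Krt7* was at 0 in every library and *Elf5* at 0 or 1 TPM, while the keratins *Krt8* and *Krt18* and the surface protein gene *Plet1* held most of the sum.

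Among the members under DMSO, *Cyr61* had the highest level, with a mean TPM of 236.5, followed by *Ajuba* (176.5), *Amotl2* (136.5), *Yap1* (100), *Ctgf* (89.5), *Tead4* (72.0), *Tead2* (66.5), *Tead1* (55.5), *Lats2* (4.5) and *Ankrd1* (1.5), each a mean of 2 libraries. The ranges of the 2 libraries overlapped between the neighbours *Yap1* and *Ctgf*, *Ctgf* and *Tead4*, and *Tead4* and *Tead2*, so these neighbours do not differ beyond their spread. The plot of TPM by library shows all 10 members.

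**Figure D1:**
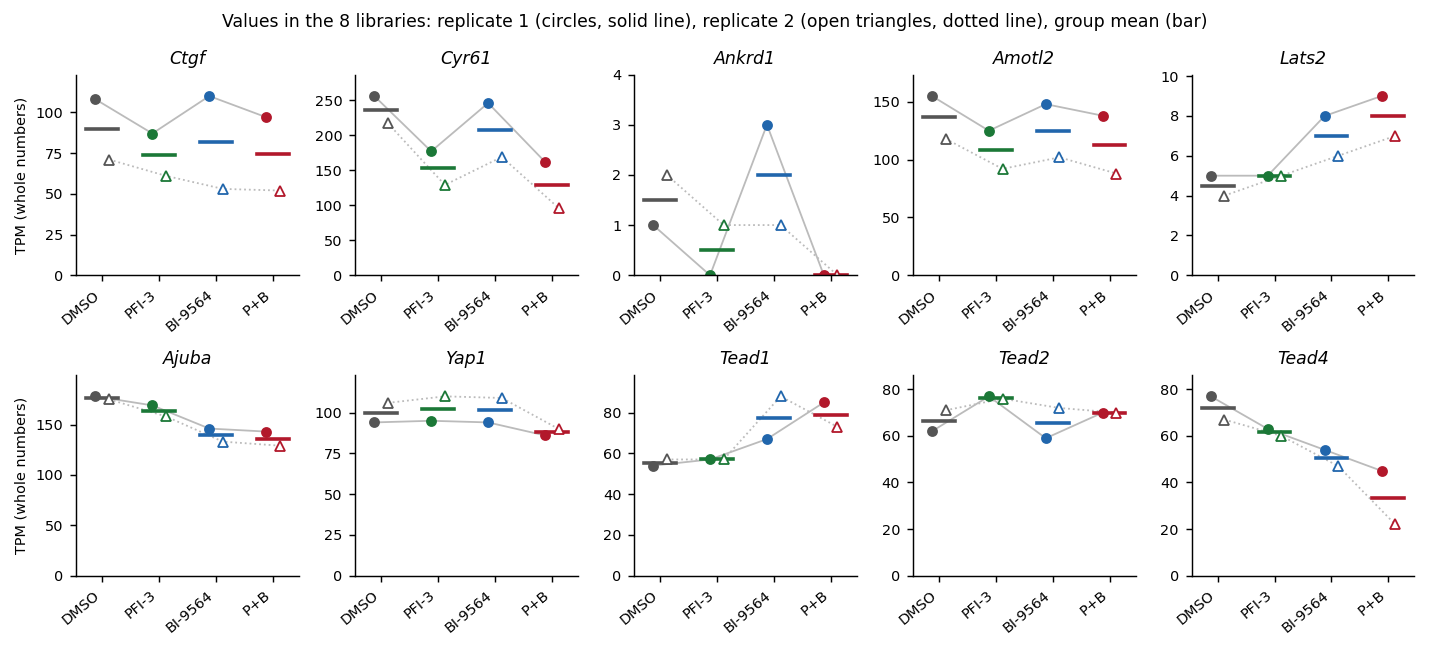
TPM of the 10 members (vertical axes from 0, in TPM) in the 4 groups, with circles and solid lines for replicate 1, open triangles and dotted lines for replicate 2, and bars for the mean of 2 libraries. *Cyr61* runs from 256 to 96 TPM, *Tead4* from 77 to 22 TPM, and *Ctgf* and *Amotl2* separate by replicate number more than by compound.

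No member passed both thresholds with P+B against DMSO without the block (0 of 9 tested), where 4.0% of all tested genes did (409 of 10222). With the replicate block, *Cyr61* and *Tead4* fell (2 of 9), beside 7.02% of all tested genes called in either direction and 4.10% called lower. Of the 9 tested members, 5 had an unadjusted p-value under 0.05 without the block, namely *Cyr61*, *Lats2*, *Ajuba*, *Tead1* and *Tead4*, and so did 22.6% of all tested genes. The 2 P+B values did not overlap the 2 DMSO values for 6 of the 9 members, with *Cyr61*, *Ajuba*, *Yap1* and *Tead4* lower and *Lats2* and *Tead1* higher, and the same held for 47.5% of all tested genes. PFI-3 alone gave 0 calls of 9 members with or without the block (0.00% of all tested genes in both fits). BI-9564 alone also gave 0 of 9 in both fits, where 0.108% of all tested genes were called without the block and 1.53% with it. In these bulk libraries, fewer cells of a type and less RNA per cell cannot be told apart. The 3 comparisons share the DMSO libraries and are set side by side in the plot of fold changes.

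**Figure D2:**
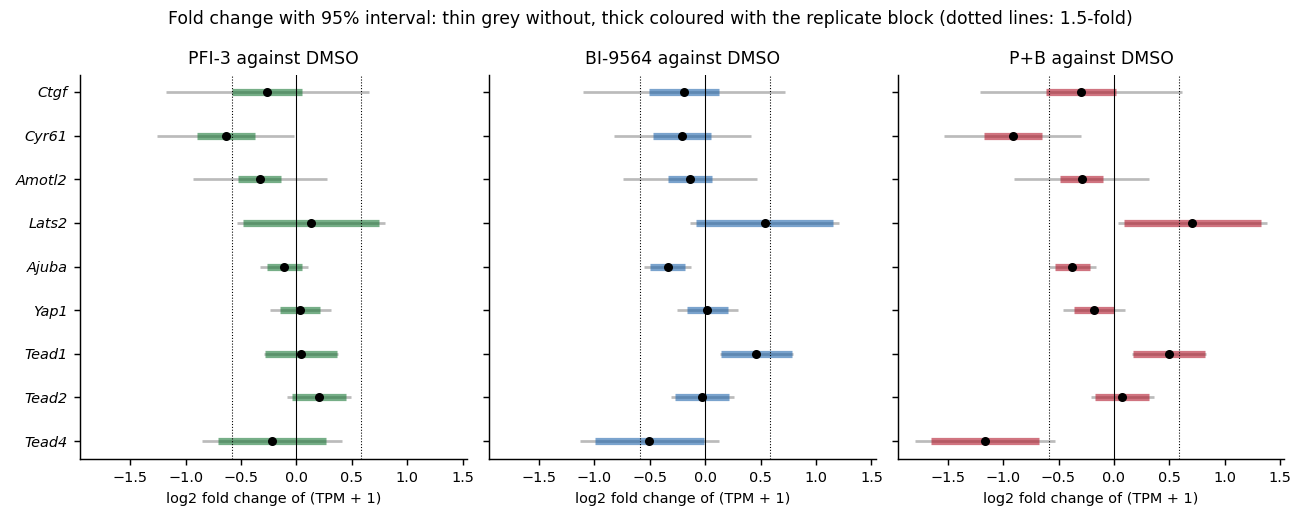
Log2 fold change of (TPM + 1) against DMSO for the 9 tested members, with dots for the estimate, thin grey bars for the 95% interval without the replicate block and thick coloured bars for that with it; dotted lines mark a 1.5-fold change. With P+B the blocked intervals of *Cyr61* (-1.17 to -0.65) and *Tead4* (-1.65 to -0.67) lie beyond the dotted line on the lower side, while the intervals of *Ctgf* narrow most under the block.

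*Cyr61* encodes a secreted matrix-associated protein and is a widely used YAP-TEAD target. The gene lies on the minus strand at chr3:145646976-145649981 (GRCm38). Its TPM was 256 and 217 under DMSO, 177 and 129 under PFI-3, 246 and 169 under BI-9564, and 162 and 96 under P+B. Every library with PFI-3 was below both DMSO libraries, while the BI-9564 replicate 1 library lay within the DMSO range. The share of all tested genes with this split was not counted. Within a replicate number, *Cyr61* with P+B was 63.3% of DMSO in replicate 1 and 44.2% in replicate 2.

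The log2 fold change of *Cyr61* with P+B was -0.91 (SE 0.270, adjusted p = 0.0946), and with the replicate block it passed (adjusted p = 0.00303). Without the block it was -0.54 when P+B replicate 2 was left out and -1.29 when P+B replicate 1 was. With PFI-3 it was -0.64 (SE 0.270, adjusted p = 0.720, and 0.157 with the block), and with BI-9564 it was -0.21 (adjusted p = 0.768). Compared directly, P+B was lower than BI-9564 in a log2 difference of -0.70 that passed only with the block (adjusted p = 0.554 without it and 0.0402 with it), and 0.196% of all tested genes were called without the block and 0.802% with it. That difference was -0.33 without P+B replicate 2 and -1.08 without P+B replicate 1. Between P+B and PFI-3 the log2 difference was -0.27, with a 95% interval of -0.89 to 0.34, and it was 0.10 without P+B replicate 2.

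A comparison of the 4 libraries with PFI-3 against the 4 without was added after the values had been seen. The log2 fold change of *Cyr61* was then -0.67 (adjusted p = 0.245, and 0.00936 with the block). Without the block 0 of 9 members were called, beside 0.323% of all tested genes, and with it *Cyr61* was the only 1 of 9, beside 1.05%. Its values still overlapped between those sets, since 177 TPM (PFI-3 replicate 1) is above 169 TPM (BI-9564 replicate 2). Non-overlap in this comparison was seen for 0 of 9 members and 3.20% of all tested genes. *Jun* moved in the same libraries, at 1569 to 2227 TPM with PFI-3 and 1970 to 3011 TPM without, and its log2 difference was -0.39 (adjusted p = 0.486, and 0.00344 with the block, less than 1.5-fold). The part of the *Jun* level in the *Cyr61* values was not tested.

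*Ctgf* and *Amotl2* followed another pattern. *Ctgf* (chr10:24595442-24598683, GRCm38) encodes a secreted protein of the same family as *Cyr61*. Its TPM was 108 and 71 under DMSO, 87 and 61 under PFI-3, 110 and 53 under BI-9564, and 97 and 52 under P+B. The replicate 1 libraries ran from 87 to 110 TPM and the replicate 2 libraries from 52 to 71 TPM, so the sets separated by replicate number and overlapped between all groups.

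With P+B the log2 fold change of *Ctgf* was -0.30 (SE 0.398, adjusted p = 0.707, and 0.195 with the block), with a 95% interval of -1.21 to 0.61. Within a replicate number, *Ctgf* with P+B was 89.8% of DMSO in replicate 1 and 73.2% in replicate 2. Leaving out a library breaks such a pair, and the log2 fold change was then 0.15 without P+B replicate 2 and 0.0014 without DMSO replicate 1. The *Ctgf* locus overlaps *Gm15270* on the other strand, and the kit is not stated to keep strand.

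*Amotl2* (chr9:102716672-102733418, GRCm38) encodes an angiomotin-like scaffold that binds YAP and holds it outside the nucleus. Its TPM was 155 and 118 under DMSO, 125 and 92 under PFI-3, 148 and 102 under BI-9564, and 138 and 88 under P+B. As for *Ctgf*, every replicate 2 library (88 to 118 TPM) was below every replicate 1 library (125 to 155 TPM). This full separation by replicate number held for 2 of 9 members, *Ctgf* and *Amotl2*, and for 3.04% of all tested genes. The log2 fold change with P+B was -0.29 (SE 0.264, adjusted p = 0.561, and 0.0637 with the block), and it was 0.029 without P+B replicate 2, which breaks a pair. Within a replicate number, *Amotl2* with P+B was 89.0% of DMSO in replicate 1 and 74.6% in replicate 2. With PFI-3 it was -0.33 (adjusted p = 0.891, and 0.227 with the block). With PFI-3, *Amotl2* was 80.6% of DMSO in replicate 1 and 78.0% in replicate 2.

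The difference between the replicates was then tested itself, as the block term of the fit, a comparison added after the values had been seen. *Ctgf* was lower in replicate 2, at a log2 difference of -0.76 (SE 0.0959, adjusted p = 0.00799), the only 1 of the 9 members past both thresholds, beside 1.32% of all tested genes. *Amotl2* (-0.50, adjusted p = 0.00626) and *Cyr61* (-0.49, adjusted p = 0.0193) passed the p threshold at less than 1.5-fold. Of all tested genes 3.77% passed that p threshold whatever their fold. *Tead4* (-0.37, adjusted p = 0.228) and *Yap1* (0.16, adjusted p = 0.156) did not pass. Replicate 2 was the lower library in all 4 groups for *Ctgf*, *Cyr61*, *Amotl2*, *Ajuba* and *Tead4* (5 of 9 members, and 12.8% of all tested genes), and the higher one in all 4 groups for *Yap1* (11.1% of all tested genes). *Jun* was higher in replicate 2, at a log2 difference of 0.51 (adjusted p = 0.00038, less than 1.5-fold). What set the replicates apart is not given in the labels, and the part of the *Jun* level was not tested.

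**Figure D3:**
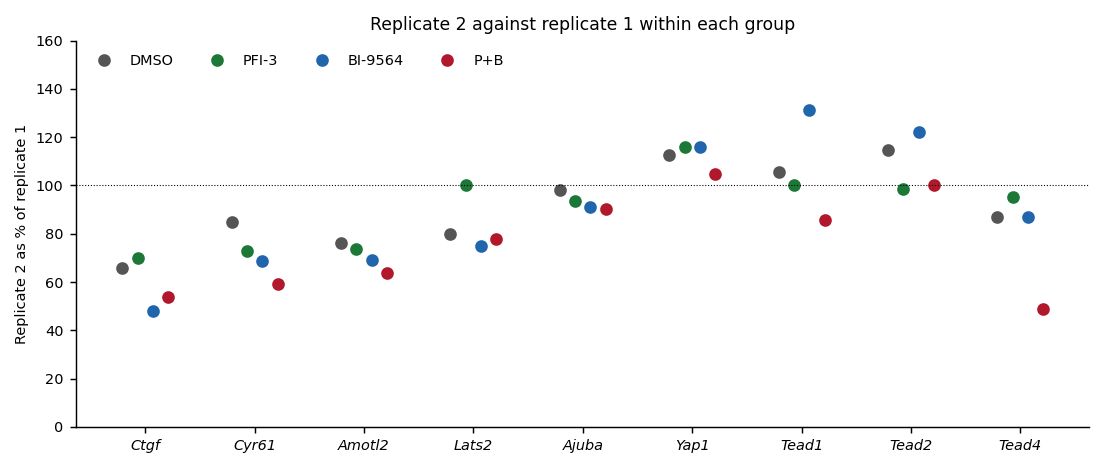
Replicate 2 as a percentage of replicate 1 (vertical axis, TPM ratio in percent, from 0) within each of the 4 groups for the 9 tested members, 1 dot per group. *Ctgf* lies between 48.2% and 70.1%, *Cyr61* between 59.3% and 84.8% and *Amotl2* between 63.8% and 76.1%, while *Yap1* lies above 100% in every group.

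*Ankrd1* (chr19:36111961-36120099, GRCm38) encodes an ankyrin repeat protein that YAP-TEAD induces strongly in many cell types, yet it was close to 0 in these mESCs. It was listed at 1 and 2 TPM under DMSO, 0 and 1 under PFI-3, 3 and 1 under BI-9564, and 0 and 0 under P+B. Both P+B libraries were at 0, as was 1 PFI-3 library. Among the 13101 genes left by a lower filter, a mean of at least 1, its adjusted p-value with P+B was 0.273. At such values a difference of 1 TPM is the rounding step, and no fold is given.

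*Ajuba* and *Lats2* are targets that act back on the pathway, and for both the libraries with BI-9564 lay apart from those without. *Ajuba* (chr14:54567472-54577558, GRCm38) encodes a LIM domain protein that restrains LATS kinases. Its TPM was 178 and 175 under DMSO, 169 and 158 under PFI-3, 146 and 133 under BI-9564, and 143 and 129 under P+B. All 4 libraries with BI-9564 were below all 4 without it. The replicates lay close together, so the SE (0.0937 on the log2 scale) was the smallest of the 9 members.

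Against DMSO the log2 fold change of *Ajuba* was -0.38 under P+B (adjusted p = 0.0605, and 0.0139 with the block) and -0.34 under BI-9564 (adjusted p = 0.177, and 0.0469 with the block), both smaller than 1.5-fold. In the blocked fit, 11.6% of all tested genes passed the p threshold under P+B and 2.78% under BI-9564, whatever their fold. With PFI-3 it was -0.11 (adjusted p = 0.904). P+B and BI-9564 differed by -0.04, with a 95% interval of -0.25 to 0.18.

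*Lats2* (chr14:57689662-57758388, GRCm38) encodes one of the kinases that inhibit YAP. Its TPM was 5 and 4 under DMSO, 5 and 5 under PFI-3, 8 and 6 under BI-9564, and 9 and 7 under P+B. The libraries with BI-9564 (6 to 9 TPM) were all above those without (4 to 5 TPM), in steps of a few TPM. The log2 fold change was 0.71 under P+B (SE 0.293, adjusted p = 0.202, and 0.126 with the block) and 0.54 under BI-9564 (adjusted p = 0.430). The annotated gene *Gm49361* overlaps *Lats2* on the same strand, so reads may be split between them.

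The windows of 250 bases before the annotated start are shown for *Cyr61* and *Ajuba*, the targets with the most negative log2 fold change between libraries with and without PFI-3 and BI-9564 respectively. Their windows overlap no annotated exon. They were taken from RefSeq (GRCm38.p6), written 5′ to 3′ along the gene, and the core letters of the TEAD motif (GGAATG, or CATTCC on the other strand) are in capitals. The *Cyr61* window is chr3:145649986-145650235 (minus strand), with the motif 103 bases before the start. The *Ajuba* window is chr14:54577662-54577911 (minus strand), with the motif 186 and 164 bases before the start.
Cyr61: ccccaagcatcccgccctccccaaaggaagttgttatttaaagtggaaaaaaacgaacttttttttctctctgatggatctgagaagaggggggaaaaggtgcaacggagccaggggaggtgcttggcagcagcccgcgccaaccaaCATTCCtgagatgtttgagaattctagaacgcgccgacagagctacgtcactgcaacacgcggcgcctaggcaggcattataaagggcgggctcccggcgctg
Ajuba: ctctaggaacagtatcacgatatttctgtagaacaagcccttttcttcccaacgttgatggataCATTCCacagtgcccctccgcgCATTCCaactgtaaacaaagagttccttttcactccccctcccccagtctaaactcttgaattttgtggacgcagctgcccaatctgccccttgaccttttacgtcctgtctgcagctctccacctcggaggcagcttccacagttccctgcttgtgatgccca
Windows were held for 7 of the 10 members, and 5 of these 7 had the TEAD motif in either direction (*Cyr61*, *Ankrd1*, *Amotl2*, *Ajuba* and *Yap1*, not *Lats2* or *Tead2*). Of 27025 genes with a window, 14.4% had it. The *Ankrd1* and *Amotl2* windows overlap annotated exons of these genes, and the *Yap1* window overlaps an exon of *Gm45494*. The AP-1 motif (TGAGTCA, or TGACTCA on the other strand) was in 0 of these 7 members and in 5.16% of all genes. The letters describe the windows only. Enhancers lie outside them, and binding was not measured here. *Ctgf*, *Tead1* and *Tead4* were not analysed here for motifs.

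*Yap1* (chr9:7931999-8004596, GRCm38), the coactivator gene itself, varied little. Its TPM was 94 and 106 under DMSO, 95 and 110 under PFI-3, 94 and 109 under BI-9564, and 86 and 90 under P+B. Both P+B libraries were below all other libraries, by 4 TPM at the nearest. How many of all tested genes did so was not counted. The log2 fold change with P+B was -0.18 (SE 0.121, adjusted p = 0.418, and 0.176 with the block), with a 95% interval of -0.46 to 0.10. *Wwtr1*, which encodes TAZ, the other coactivator of this kind, was at 38 and 34 TPM under DMSO and 30 and 24 TPM under P+B (log2 fold change -0.41, adjusted p = 0.149).

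Among the TEAD genes, *Tead4* was lower and *Tead1* higher in the libraries with BI-9564. *Tead4* (chr6:128224288-128300823, GRCm38) was at 77 and 67 TPM under DMSO, 63 and 60 under PFI-3, 54 and 47 under BI-9564, and 45 and 22 under P+B. The 4 groups did not overlap, and the order from DMSO through PFI-3 and BI-9564 to P+B held in both replicate numbers. How many of all tested genes share this order was not counted. Between P+B and DMSO alone, 47.5% of all tested genes did not overlap. Within a replicate number, *Tead4* with P+B was 58.4% of DMSO in replicate 1 and 32.8% in replicate 2, and with BI-9564 it was 70.1% in both.

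With P+B the log2 fold change of *Tead4* was -1.16 (SE 0.275, adjusted p = 0.0526), just outside the threshold, and with the block it fell (adjusted p = 0.0144). The size rested on the P+B library of replicate 2, since the log2 fold change was -0.66 without it (adjusted p = 0.213) and -1.66 without P+B replicate 1 (adjusted p = 0.0110). With BI-9564 it was -0.50 (adjusted p = 0.429, and 0.225 with the block) and with PFI-3 -0.22 (adjusted p = 0.951). P+B against PFI-3 gave -0.94 (adjusted p = 0.140, and 0.0467 with the block), the only 1 of 9 members called there with the block, beside 1.31% of all tested genes without the block and 3.43% with it. It was -0.44 without P+B replicate 2 (adjusted p = 0.397) and -1.44 without P+B replicate 1 (adjusted p = 0.0423). P+B against BI-9564 gave -0.66 (adjusted p = 0.600, and 0.267 with the block).

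The sum of the trophectoderm markers, carried by *Krt8*, *Krt18* and *Plet1*, was lower in every group with a compound than under DMSO. The 10 markers summed to 355 to 450 TPM under DMSO, 220 to 278 under PFI-3, 200 to 245 under BI-9564 and 102 to 127 under P+B. With P+B, 3 of the 4 tested markers fell, beside 2.72% of all tested genes, namely *Krt8* (log2 fold change -1.75, adjusted p = 0.0155), *Krt18* (-2.0, adjusted p = 0.00349) and *Plet1* (-2.26, adjusted p = 0.00052). The fourth, *Eomes*, was at 4 and 7 TPM under DMSO and 6 and 8 TPM under P+B (0.33, adjusted p = 0.622). *Cdx2*, a transcription factor that defines the trophectoderm, was at 1 and 0 TPM under DMSO and at 5 and 10 TPM under P+B. Their part in the *Tead4* values was not tested.

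*Tead1* (chr7:112679318-112906807, GRCm38) was at 54 and 57 TPM under DMSO, 57 and 57 under PFI-3, 67 and 88 under BI-9564, and 85 and 73 under P+B. All 4 libraries with BI-9564 were above all 4 without it. The log2 fold change was 0.50 under P+B (SE 0.145, adjusted p = 0.0909, and 0.0584 with the block) and 0.46 under BI-9564 (adjusted p = 0.212, and 0.121 with the block). With PFI-3 it was 0.04, with a 95% interval of -0.29 to 0.37.

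*Tead2* (chr7:45215753-45233644, GRCm38) was at 62 and 71 TPM under DMSO, 77 and 76 under PFI-3, 59 and 72 under BI-9564, and 70 and 70 under P+B. PFI-3 was the only group with both libraries above both DMSO libraries, at a log2 difference of 0.20 (adjusted p = 0.854). That pattern was not counted over all tested genes. With P+B the log2 fold change was 0.08 (SE 0.125, adjusted p = 0.761), and it was -0.020 without DMSO replicate 1. *Tead3*, which was not among the 10, was low at 8 to 15 TPM. By whole gene span, annotated genes on the other strand overlap *Yap1* (*Gm20416*), *Tead1* (*2310014F06Rik*), *Tead2* (*Cd37*) and *Tead4* (the pseudogene *Gm21893*). Without strand some of their reads may be shared, and overlap of their exons was not tested.

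Summed over *Tead1* to *Tead4*, the level was 208 and 204 TPM under DMSO, 206 and 202 under PFI-3, 190 and 220 under BI-9564, and 208 and 179 under P+B. The sums thus overlapped while their makeup differed. *Tead4* was 37.0% and 32.8% of the sum under DMSO and 21.6% and 12.3% under P+B, and *Tead1* was 26% and 27.9% under DMSO and 40.9% and 40.8% under P+B. The ratio of *Tead4* to *Tead1* was 1.43 and 1.18 under DMSO, 1.11 and 1.05 under PFI-3, 0.806 and 0.534 under BI-9564, and 0.529 and 0.301 under P+B. *Tead4* was thus above *Tead1* in all 4 libraries without BI-9564 and below it in all 4 with it. These shares are a description with no test, chosen after the values were seen.

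**Figure D4:**
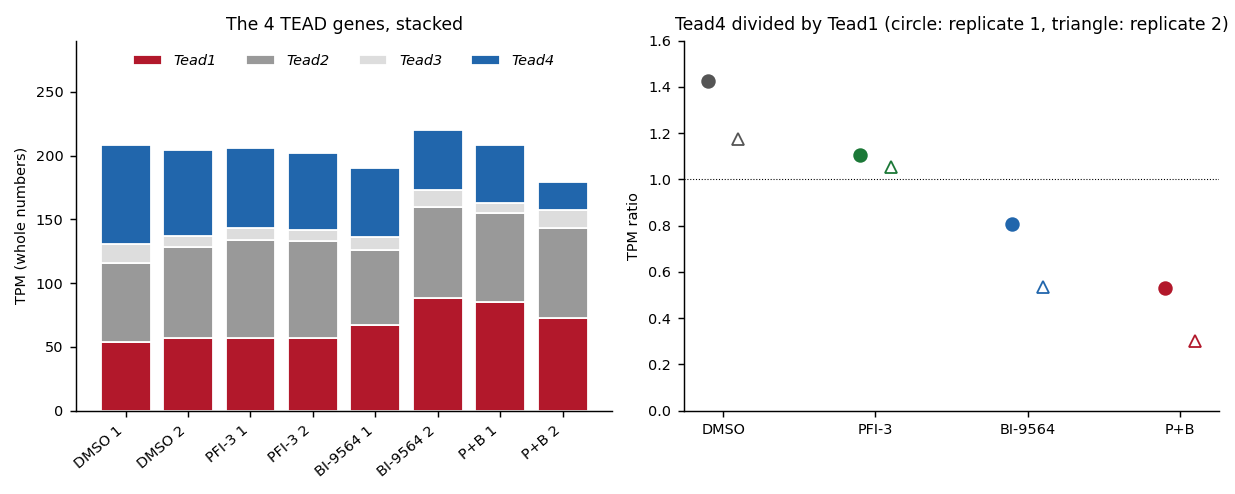
Left, TPM of the 4 TEAD genes stacked for each of the 8 libraries (vertical axis in TPM, from 0); right, the ratio of *Tead4* to *Tead1* TPM, with circles for replicate 1, open triangles for replicate 2 and a dotted line at equal levels. The stacks stay between 179 and 220 TPM, while the ratio runs from 1.43 in a DMSO library to 0.301 in a P+B library.

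To set the 4 libraries with BI-9564 against the 4 without, the group means were compared in the same fit, again a comparison added after the values had been seen. *Ajuba* (log2 fold change -0.30, adjusted p = 0.0360) and *Tead1* (0.46, adjusted p = 0.0369) passed the p threshold but were smaller than 1.5-fold, where 6.74% of all tested genes passed that threshold whatever their fold. *Tead4* gave -0.72 (adjusted p = 0.0630) and passed both thresholds with the block (adjusted p = 0.0194), and *Lats2* gave 0.56 (adjusted p = 0.144). Thus 0 of 9 members were called, beside 3.19% of all tested genes, and 1 of 9 with the block, beside 4.95%. The values of 4 of the 9 members (*Ajuba*, *Tead4*, *Lats2* and *Tead1*) did not overlap between these libraries, and 13.8% of all tested genes did not.

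An interaction term tested whether P+B differed from both single effects added up. No member passed (0 of 9, and 0.00% of all tested genes), and the lowest unadjusted p-value among the members was 0.206. For *Tead4* the interaction was -0.44, and it ran from -0.94 without P+B replicate 1 to 0.061 without P+B replicate 2. When BI-9564 alone was compared with PFI-3 alone, 0 of 9 members were called, beside 0.108% of all tested genes.

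Other genes of the pathway were read from 3 lists taken from general knowledge. The lists were chosen with earlier results of these data known, so their counts are a description and not independent evidence. Of the Hippo kinase cascade, 15 of 16 genes in the table were tested, and 0 were called with P+B. Its median log2 fold change was 0.06, as for all tested genes (0.06). *Map4k4*, a kinase that acts on LATS, had the highest mean and was at 143 and 152 TPM under DMSO and 109 and 118 TPM under P+B (log2 fold change -0.38, adjusted p = 0.0544, and 0.0144 with the block, below 1.5-fold). *Taok2*, a kinase of the same cascade, was at 72 and 64 TPM under DMSO and 73 and 72 TPM under P+B (0.09, adjusted p = 0.696).

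Of 6 other cofactors of YAP and TAZ, 3 were tested and 0 were called with P+B. *Vgll4*, which encodes a protein that competes with YAP for TEADs, was at 45 and 32 TPM under DMSO, 44 and 26 under PFI-3, 38 and 23 under BI-9564, and 31 and 20 under P+B. Replicate 2 was lower in every group. For *Vgll4* the log2 fold change under P+B was -0.59 (adjusted p = 0.345) and passed with the block (adjusted p = 0.0226). In the blocked fit 4.10% of all tested genes were called lower.

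Of 16 further genes that belong to a known YAP and TAZ signature, 10 were tested and 3 fell with P+B, *Myof*, *Gadd45a* and *Dock5*, while 0 rose. Of all tested genes 2.72% fell. The median of the 10 was -0.46, with 6 below 0 and 4 above. The highest was *Igfbp3* (0.42, adjusted p = 0.305), at 18 and 12 TPM under DMSO and 21 and 19 TPM under P+B. Under BI-9564 *Igfbp3* was at 23 and 26 TPM. With the block it was called higher in the libraries with BI-9564 than in those without. *Myof* and *Dock5* were called lower there, beside 4.95% of all tested genes called in either direction. *Myof*, a membrane repair protein gene, was at 64 and 50 TPM under DMSO, 43 and 33 under PFI-3, 35 and 28 under BI-9564, and 23 and 16 under P+B (log2 fold change -1.51, SE 0.223, adjusted p = 0.00980). Both P+B libraries were below all other libraries, a split whose share over all tested genes was not counted. *Gadd45a*, a growth arrest and DNA damage response gene, was at 87 and 112 TPM under DMSO and 46 and 47 TPM under P+B (-1.07, adjusted p = 0.00980). *Dock5*, which encodes an activator of RAC, was at 35 and 34 TPM under DMSO and 18 and 17 TPM under P+B (-0.94, adjusted p = 0.00835).

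**Figure D5:**
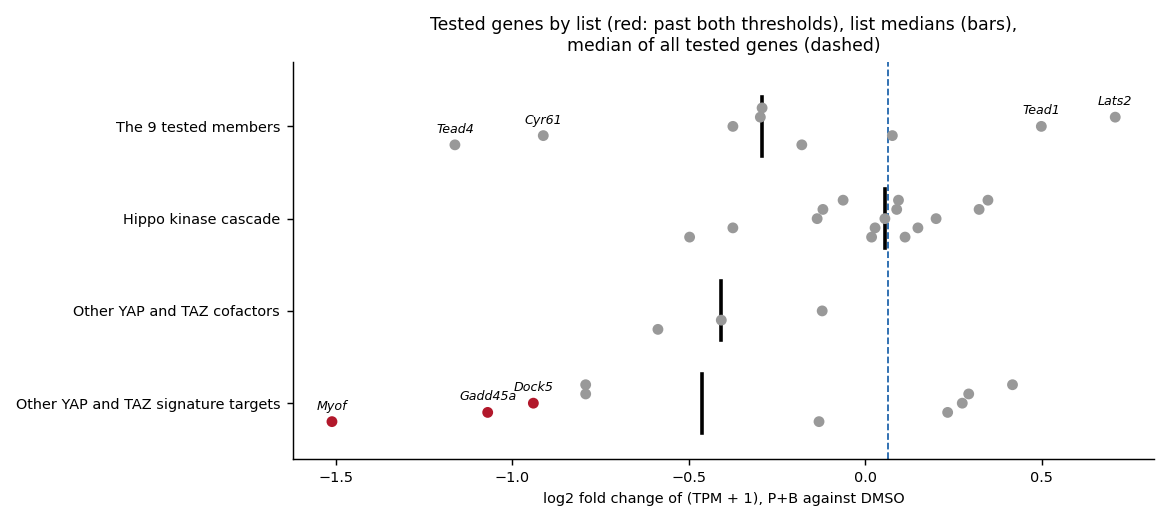
Log2 fold change of (TPM + 1) with P+B against DMSO (horizontal axis) for the tested members and 3 lists of pathway genes (rows), 1 dot per tested gene, red past both thresholds without the block, with bars for list medians and a dashed line for the median of all tested genes (0.06). The red dots are *Myof*, *Gadd45a* and *Dock5*, all below 0, and the dots of the members *Tead4* (-1.16) and *Cyr61* (-0.91) are grey.

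The tested genes whose log2 values over the 8 libraries were most like those of a member were listed as a description, since the libraries share replicate number and treatment. For *Cyr61* they were *Nuak1* (Pearson r = 0.980), *Slc38a2* (0.963) and *Csrp1* (0.961). For *Ctgf* they were *Nid1* (0.970), *Mfsd12* (0.970) and *Gabarapl1* (0.962), and for *Yap1* they were *Zfp146* (0.964), *Atat1* (0.960) and *Gars* (0.951). *Csrp1* was at 165 and 126 TPM under DMSO and 109 and 79 TPM under P+B. *Nuak1* was low, at 11 and 9 TPM under DMSO and 5 and 3 TPM under P+B. *Mfsd12*, *Gabarapl1* and *Atat1* were low too, at 8 to 16 TPM. At such levels the rounding step of 1 TPM limits what r can show. Each gene was picked as among the highest of 10222. Among the members, *Ctgf* and *Amotl2* were most alike (r = 0.959 over 8 libraries). *Cyr61* had r = 0.858 with *Amotl2* and r = 0.751 with *Ctgf*. *Ajuba* ran with *Tead4* (r = 0.855) and against *Tead1* (r = -0.862).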

How the data were processed

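RNA-seq of 8 libraries was read from a table of 50600 gene names. According to the submitters' processing notes, bcl2fastq, Bowtie2 2.2.5, RSEM 1.3.0 and the mm10 build were used. The values the authors deposited are a score, namely TPM made whole numbers, and they sum to 991574 to 991897 per library. Depth and counting error are therefore unknown, and count tools were not used. Rows with a repeated name (187), rows named as a date (27) and rows at 0 in all libraries (33075) held no member.

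On the scale of log2(value + 1), limma (version 3.58.1, R 4.3.3) was fitted with a trend on the mean to all 4 groups together, with 4 residual degrees of freedom and Benjamini-Hochberg adjustment within each comparison. The procedure was run on simulated data with independent noise in each library. A replicate difference was simulated only for the blocked fit, so the main fit was not tried on data that hold one. The difference between replicates 1 and 2 correlated across genes in all 6 pairs of groups (lowest Pearson r 0.143, highest 0.236). The main fit left the replicate numbers out. A second fit treated those in the labels as pairs and blocked on them.

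The members and lists were chosen with earlier results of these data known. A list of upstream regulators and scaffolds of the pathway is not reported here. All 10 members are named, with the called genes of each list (otherwise its 2 highest), and the 3 genes most like *Ctgf*, *Cyr61* and *Yap1*. *Igfbp3* is named too, as the highest log2 fold change of its list with P+B. Positions are from GENCODE on GRCm38.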

Additional observations from a re-analysis of the deposited data

How the results depend on the processing

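For the count of members changed with P+B against DMSO (0 without the block), the replicate block gave 2 (*Cyr61* and *Tead4*), a pseudocount of 5, a filter at a mean of at least 20 and median centring gave 1 each (*Tead4*), and the block without a fold threshold, added after the values were seen, gave 3 (also *Ajuba*). Leaving out 1 library gave 0 to 1. With the block, 1 member passed in P+B against PFI-3, in P+B against BI-9564, in the libraries with PFI-3 against those without and in the libraries with BI-9564 against those without, and the block without a fold threshold gave 1, 1, 1 and 3 there, and 1 for BI-9564 against DMSO. Without the block and the fold threshold, the libraries with BI-9564 gave 2. Leaving out 1 library gave 0 to 1 for P+B against PFI-3 and for the libraries with BI-9564, each time *Tead4* without P+B replicate 1. The pairing changed no other call of a member.

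The log2 fold changes with P+B that turned sign were those of *Ctgf* (-0.74 to 0.15 over the libraries left out), *Amotl2* (-0.61 to 0.029) and *Tead2* (-0.020 to 0.17, and -0.017 with median centring), and the interaction of *Tead4* (-0.94 to 0.061). Sign also turned for *Cyr61* with BI-9564 against DMSO (-0.48 to 0.061) and P+B against PFI-3 (-0.65 to 0.10), *Ajuba* with P+B against BI-9564 (-0.11 to 0.037) and *Tead1* with PFI-3 against DMSO (-0.0090 with median centring). The cause was not tested. Leaving out a library breaks a same-numbered pair, so these ranges hold the replicate difference too. Depth is unknown and whole-number TPM limit *Ankrd1* and *Lats2*.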
